A study of Mus musculus with 860 samples.

Results

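The first blood stem cells of the mouse embryo form in the AGM, the region of aorta, gonad and mesonephros. There, haemogenic endothelium (HE) of the dorsal aorta rounds up, leaves the vessel wall and forms intra-aortic haematopoietic clusters (IAHC), a passage called the endothelial-to-haematopoietic transition. Arterial identity in this endothelium goes with Notch signalling, in which a ligand such as DLL4 or JAG1 on one cell releases the intracellular part of a receptor on its neighbour. That part joins RBPJ on DNA and switches on targets such as the Hes and Hey repressors. Blood identity is tied to RUNX1 and its target GFI1, and factors such as PU.1 (encoded by Spi1), MYB and Ikaros (encoded by Ikzf1) act in the progenitors that follow.

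The comparison is between GFI1+ HE and GFI1+ IAHC of E10.5 embryos (32 to 33 somite pairs), sequenced together in batch GL78. It asks which genes set HE apart from the cluster cells at this stage. Its members were the cells of these groups that passed the authors' quality filter, 91 HE and 87 IAHC, out of the 775 kept cells of the series. Every embryo carried the Gfi1:tomato reporter, an allele that makes a fluorescent protein where Gfi1 is active, on a background labelled CD1/Gf1+. AGMs of several embryos were pooled for the sort, so a cell cannot be assigned to an embryo. HE was sorted as CD31+cKIT-GFI1+ and IAHC as CD31+cKIT+GFI1+, neither was cultured or treated, and both were sorted into 1 plate. Each cell gave 1 Smart-Seq2 library, a full-length cDNA method without molecular identifiers, and 9 fluorescence signals were recorded as it was sorted. The main values use the authors' Louvain clusters 0 to 5, which held 77 HE and 81 IAHC. The 20 other cells, among them 9 HE cells of cluster 9, enter only where stated. The same contrast at E11.5 (39 HE and 76 IAHC of GL78) and in other E10.5 cells (15 HE of batch GL58 and 28 IAHC of batch GL69) is given beside it.

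The cells of clusters 0 to 5 held 394278 to 1216955 counts in HE and 394471 to 1217620 in IAHC, 66094229 and 68703062 in sum. At 50000 counts per cell a median of 5868 genes was detected in HE and 6141 in IAHC, and mitochondrial reads made up a median of 1.11% and 1.11% of the counts. By reads of Xist and of Y-linked genes, at 5 CPM or more, 15 HE and 23 IAHC cells had Xist alone and 56 and 58 had Y-linked reads alone, so both groups held cells of male and female embryos, and no cell had both. No label names an animal or a sort per cell, so each group counts as 1 sample. There is no replicate check and no test, and the words higher and lower describe these values alone. Counts of a group's cells were summed and scaled to a total of 1000000 counts (CPM), and the log2 ratio is that of HE over IAHC with 1 CPM added to both. A gene was measured at 10 CPM or more in either group, and called at least 2-fold higher or lower when reads were also present in 25% or more of the cells of the higher group. Intervals cover counting error only.

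HE differed from IAHC mainly by arterial and vessel-wall genes, which were higher in HE, and by genes of blood progenitors and leukocytes, which were lower. Of 9421 genes measured, 2.8% were called higher in HE and 2.06% were called lower, and the median log2 ratio of all measured genes was -0.02. Most of these differences lay in a part of each group. Cluster 4 held 26 of 77 HE cells and 2 of 81 IAHC cells, and cluster 2 held 9 HE and 36 IAHC cells. The clusters were made from the same reads, so their part in the contrast is a description.

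Among called genes that held without the top cell of each group, the largest ratio in HE was that of Htra1, which encodes a secreted serine protease, with 37.8 CPM in HE and 2.21 CPM in IAHC (3.59) and reads in 20 HE cells and 6 IAHC cells. It was followed by Tmem100, a membrane protein gene downstream of the BMP receptor ALK1 in endothelium (120.5 against 9.85 CPM, 3.48), and by Hey2, the repressor that Notch induces in arteries (19.4 against 1.18 CPM, 3.23). Next were Dhh, the desert hedgehog ligand (3.13), Tm4sf1, a membrane protein gene of endothelium (3.09), and Gja4. The rest of the 15 genes with the largest ratios were Ltbp4, a binding protein for latent TGF-beta (2.74), the netrin receptor gene Unc5b (2.63), the laminin gene Lama3 (2.55), Sost, which encodes the Wnt inhibitor sclerostin (2.53), the natriuretic peptide clearance receptor gene Npr3 (2.50), the proprotein convertase gene Pcsk5 (2.50), the kinase gene Bmx (2.47), Gja5 and the fibrillin gene Fbn1 (2.43). All 15 kept a ratio of 1 or more without the cell that held most of their reads in each group, as the naming rule required. Without these cells Ltbp4 moved to 3.43 and Pcsk5 to 3.09.

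Gja4 (ENSMUSG00000050234, chromosome 4, 127311421 to 127314039 in GRCm38, minus strand) encodes connexin 37, a gap junction protein of arterial endothelium. In HE its level per cell ran over 0, 4.11 and 4498.01 CPM (lowest, median and highest of 77 cells), and in IAHC over 0, 0 and 1874.5 CPM (81 cells). The groups overlapped over the whole range of IAHC, and many cells of both had no read. Summed, it stood at 862.5 CPM (95% interval 855.5 to 869.7) in HE and 113.4 CPM (interval 110.9 to 115.9) in IAHC, a log2 ratio of 2.92. Of the cells with reads, the median was 1493.6 CPM over 39 HE cells and 133.1 CPM over 23 IAHC cells, so both the share of cells and the level in them were higher in HE. Gja5 (ENSMUSG00000057123, chromosome 3, 96904693 to 97077416, plus strand), the gene of the arterial connexin 40, was at 538.8 CPM in HE and 96.5 CPM in IAHC (2.47), with reads in 33 HE cells and 17 IAHC cells and highest single cells of 3142.5 and 3034.7 CPM. One IAHC cell held 44.8% of the Gja5 reads of IAHC, and without the top cell of each group the ratio was 3.20. Reads of both connexins were found together in 32 HE and 12 IAHC cells.

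**Figure D1:**
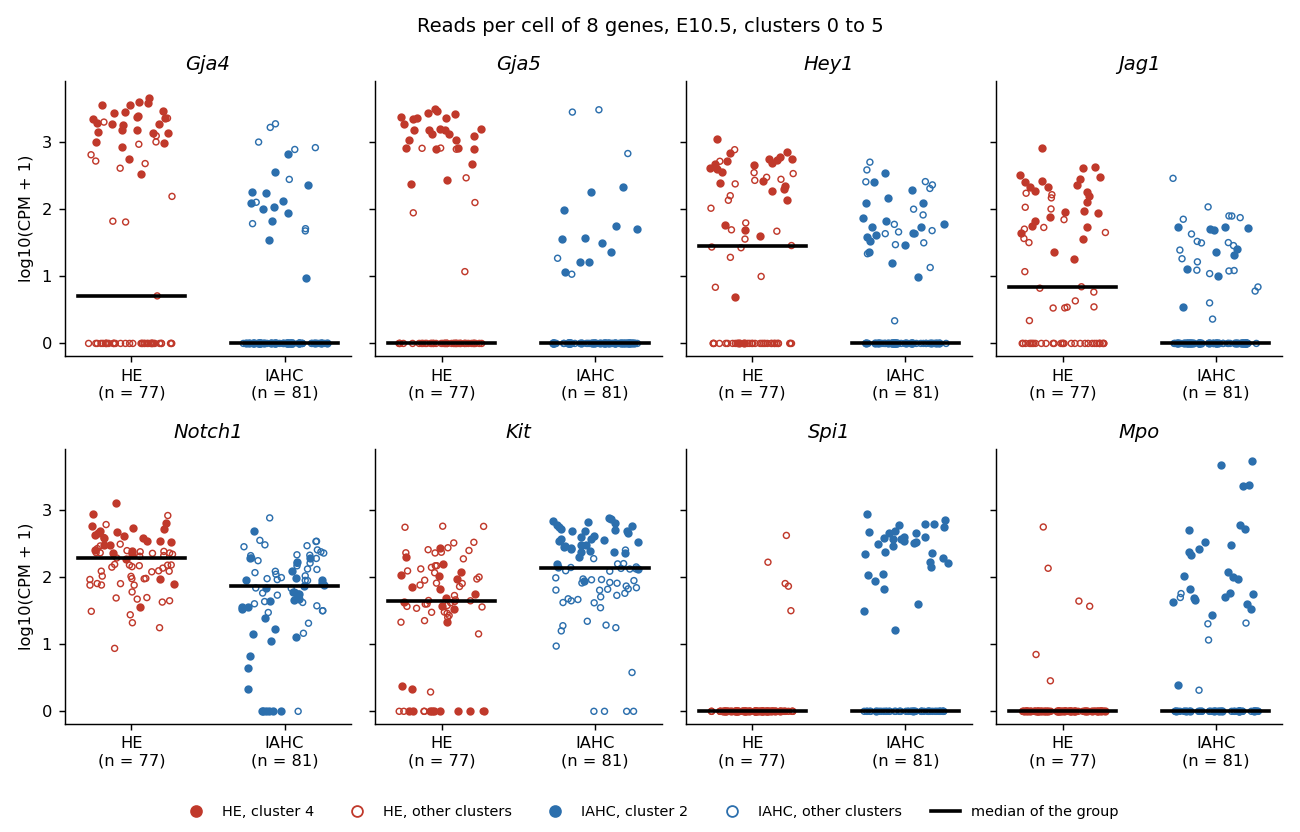
Reads per cell of 8 genes in E10.5 HE and IAHC of clusters 0 to 5, as log10 of CPM plus 1. Each point is a cell (77 HE, 81 IAHC), filled in cluster 4 of HE and cluster 2 of IAHC and open elsewhere, and bars are group medians. High values of Gja4 and Gja5 come mostly from filled HE points and reads of Spi1 and Mpo mostly from filled IAHC points, while the open points of both groups overlap.

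Arterial genes as a list were higher in HE throughout (of 18 genes measured, 17 higher and 0 lower, median log2 ratio 2.01). Of the members not yet named, Sema3g, a semaphorin gene of arterial endothelium (2.13, and 2.91 without the top cells), and the chemokine receptor gene Cxcr4 (2.13) were among the highest, and the vascular growth factor gene Vegfc stood at 139.1 against 35.2 CPM (1.95). Efnb2, the ephrin that marks arteries (1.73), the VEGF co-receptor gene Nrp1 (854.2 against 256.8 CPM, 1.73) and the hypoxia-inducible factor gene Epas1 (1.81) lay below the median of the list. The lowest measured member was Sox17, a transcription factor gene of arterial endothelium, at 221.2 against 144.9 CPM (0.61), which was detected in most cells of both groups outside cluster 2. The summed level of the list per cell ran from 30.6 over a median of 1418.98 to 14818.7 CPM in HE, and from 0 over 585.9 to 9982.8 CPM in IAHC. Cluster 4 held 33.8% of the HE cells, 32.2% of their reads and 76.2% of the arterial reads of HE.

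General endothelial genes differed less (of 24 genes measured, 3 higher and 0 lower, median 0.77). The transcription factor gene Sox7 (1.41), Mmrn2, an extracellular matrix protein of vessels (1.24), and the VEGF receptor gene Flt1 (1.07) were called higher. Pecam1, which encodes CD31, was at 827.4 CPM in HE and 421.8 CPM in IAHC (0.97) and had reads in 76 HE cells and 78 IAHC cells, and Cdh5, the VE-cadherin gene, was at 456.3 CPM in HE and 250.3 CPM in IAHC (0.86), with 76 HE cells and 75 IAHC cells. Both gates thus held cells with endothelial transcripts almost throughout. Tal1 and Erg, factors that blood and endothelium share, were the lowest members (-0.59 and -0.36). Genes of junctions and caveolae had a median of 0.78 (of 15 genes measured, 4 higher and 0 lower), led by Cavin2 (1.74) and the caveolin gene Cav1 (1.62). Venous and lymphatic genes were mixed (of 10 genes measured, 1 higher and 0 lower, median 0.18), with Vwf, the gene of von Willebrand factor, as the 1 call (627.9 against 247.5 CPM, 1.34). The lymphatic marker gene Lyve1 was at 1.57 against 10.9 CPM (-2.21, in too few cells to be called, and -1.62 without the top cells) and the venous factor gene Nr2f2 at -0.36.

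The vessel wall and its matrix were a further group of higher genes. The list of shear-responsive and vessel-wall genes had a median of 1.34 (of 16 genes measured, 10 higher and 1 lower), and its lower member was Ptgs1, which encodes cyclooxygenase 1 (-1.01). The fibulin gene Fbln2 had the largest ratio of it (19.2 against 1.32 CPM, 3.12) but reads in 12 HE cells and 5 IAHC cells, too few to be called. The nitric oxide synthase gene Nos3 was at 1.43 and the shear-induced factor genes Klf4 and Klf2 at 1.27 and 0.54. Basement membrane genes had a median of 1.07 (of 16 genes measured, 9 higher and 0 lower), among them the agrin gene Agrn (1.57), the collagen genes Col4a2 (918.6 against 366.5 CPM, 1.32) and Col4a1 (1.00), and the nidogen gene Nid1 (1.15). Of the BMP and TGF-beta genes (of 15 genes measured, 3 higher and 0 lower, median 0.42), Acvrl1, which encodes ALK1, was at 192.5 against 84.3 CPM (1.18) and the inhibitory SMAD gene Smad6 at 1.12, whereas Bmp4 (0.01) and Smad1 (0.05) were nearly level. The VEGF, Tie and semaphorin list stood at 0.83 (of 16 genes measured, 5 higher and 1 lower), and its lower member was Angpt1, the TIE2 ligand gene (5.46 against 27.8 CPM, -2.16). Hedgehog and Wnt genes (of 10 genes measured, 2 higher and 0 lower, 0.52), integrin and cytoskeleton genes (of 23 genes measured, 1 higher and 1 lower, 0.51), YAP targets (of 12 genes measured, 0 higher and 0 lower, 0.41) and Hox and imprinted genes (of 14 genes measured, 1 higher and 0 lower, 0.59) had positive medians below 1.

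Notch receptors and ligands were higher in HE or level, and none was called lower (of 8 genes measured, 6 higher and 0 lower, median 1.22). Among receptors, Notch1 was at 232.8 CPM in HE and 112.9 CPM in IAHC (1.04) with reads in 77 HE cells and 74 IAHC cells, and its highest cells were at 1254.7 and 762.7 CPM. Notch4, the endothelial receptor, was at 148.7 CPM in HE and 43.9 CPM in IAHC (1.74), with 72 HE cells and 48 IAHC cells. Notch3 was at 24.3 against 7.51 CPM (1.57) and Notch2 at 13.5 against 13 CPM (0.05). Among ligands, Jag1 was at 74.1 CPM in HE and 16.9 CPM in IAHC (2.07), with 47 HE cells and 33 IAHC cells, Dll4 at 204.2 CPM in HE and 85.2 CPM in IAHC (1.25), with 55 HE cells and 36 IAHC cells, and Jag2 at 56 against 24.1 CPM (1.18). Dll1 was at 16.1 against 14.3 CPM (0.16), and Dll3 had 0 reads in HE and 76 in IAHC.

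The targets did not go together (of 4 genes measured, 2 higher and 0 lower, median 0.99). Hey2 (ENSMUSG00000019789, chromosome 10, 30832359 to 30842801, minus strand) had reads in 24 HE cells and 5 IAHC cells and highest cells of 257.6 and 64.3 CPM, with a median of 0 in both groups. Hey1 was at 175.2 CPM in HE and 50.7 CPM in IAHC (1.77) in 45 HE cells and 37 IAHC cells, and Hes1 at 59.8 CPM in HE and 51.8 CPM in IAHC (0.20) in 63 HE cells and 54 IAHC cells. Both Hey genes had reads in 22 HE and 5 IAHC cells. Gata2, a blood factor gene that Notch1 induces in the aorta, was level in sum (103.03 against 107.2 CPM, -0.06) but was detected in 61 HE cells and 78 IAHC cells. Nrarp, a feedback inhibitor of the pathway, stayed under 10 CPM (5.76 against 3.27 CPM). Heyl and Hes5 were at 2.57 and 1.72 CPM in HE, from 2 and 3 cells, and had 0 reads in IAHC, and Dtx1 had 1 read in HE and 93 in IAHC. Modifiers and processing factors such as Rbpj (-0.14), the fringe gene Mfng (244.8 against 253.2 CPM, -0.05) and the protease gene Adam10 (0.09) were nearly level (of 15 genes measured, 0 higher and 0 lower, median 0.03).

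Promoters were examined for 5 genes of both sides, with RefSeq sequences of GRCm38.p6 that cover the 250 bases before the start. Motifs were searched on both strands as exact letters. For RBPJ, which joins the Notch receptor, the letters were TGGGAA. For RUNX factors they were TGTGGT. The search for GATA factors used AGATAA. The core of PU.1 sites was taken as GAGGAA. For SOX factors ACAAAG was searched first. As the second SOX motif, ATTGTT was used. In this order they are found in 21.6%, 14%, 9.99%, 23.3%, 16.5% and 9.42% of all 32851 windows of that length, so a match is common and no more than a description. For Hey2, Gja5 and Mpo the RefSeq start lies inside the gene's span given here. The windows of Hey2, Gja5 and Mpo are shown because they belong to the Notch target with the largest ratio, an arterial gene and the gene with the largest ratio on the IAHC side, with matches in capitals.
Hey2 (chr10:30842784-30843033, minus strand): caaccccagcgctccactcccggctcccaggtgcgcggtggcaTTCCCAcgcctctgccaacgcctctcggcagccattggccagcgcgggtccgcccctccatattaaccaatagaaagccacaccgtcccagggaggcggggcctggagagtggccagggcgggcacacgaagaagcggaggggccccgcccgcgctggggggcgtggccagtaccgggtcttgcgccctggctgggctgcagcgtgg
Gja5 (chr3:97032152-97032401, plus strand): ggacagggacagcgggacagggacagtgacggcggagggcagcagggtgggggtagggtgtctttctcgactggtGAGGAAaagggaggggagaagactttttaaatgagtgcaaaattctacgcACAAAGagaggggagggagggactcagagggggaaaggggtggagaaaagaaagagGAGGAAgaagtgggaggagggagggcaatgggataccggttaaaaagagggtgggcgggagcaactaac
Mpo (chr11:87793534-87793783, plus strand): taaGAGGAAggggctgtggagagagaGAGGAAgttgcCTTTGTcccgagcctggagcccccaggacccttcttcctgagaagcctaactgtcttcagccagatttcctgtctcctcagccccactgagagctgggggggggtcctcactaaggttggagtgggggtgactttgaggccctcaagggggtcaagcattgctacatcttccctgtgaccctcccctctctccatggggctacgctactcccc
The Hey2 window held 1 RBPJ match, on the reverse strand. Those of Gja5 and Mpo held 2 and 2 GAGGAA matches and 1 and 1 ACAAAG match, and the windows of Gja4 and Myb held none of these letters.

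On the side of IAHC, several myeloid genes were among those with the largest ratios. Mpo (ENSMUSG00000009350, chromosome 11, 87793581 to 87804413, plus strand), which encodes the granule enzyme myeloperoxidase, was at 9.14 CPM in HE and 237.4 CPM in IAHC (-4.56), with reads in 6 HE cells and 33 IAHC cells and highest cells of 557.9 and 5302.6 CPM. Prtn3, the proteinase 3 gene, was at 4.51 against 96.8 CPM (-4.15) in 1 HE cell and 27 IAHC cells, and the lysozyme gene Lyz2 at 3.12 against 61.6 CPM (-3.93). Spi1 (ENSMUSG00000002111, chromosome 2, 91082390 to 91115756, plus strand) was at 7.79 CPM (95% interval 7.13 to 8.49) in HE and 135.3 CPM (interval 132.6 to 138.1) in IAHC (-3.95). Its reads lay in 5 HE cells and 34 IAHC cells, and the highest cells were at 417.6 and 869.7 CPM, and the median was 0 in both groups. Spi1 and Mpo had reads together in 2 HE and 26 IAHC cells, and Spi1 and Gja4 in 2 HE and 13 IAHC cells. The myeloid list had a median of -2.75 (of 8 genes measured, 0 higher and 5 lower), whereas the granule and calprotectin genes Ctsg, S100a8 and S100a9 had 0 reads in both groups.

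Other genes among those with the largest ratios on this side were the tubulin gene Tuba4a (-4.38), the pleckstrin gene Plek (-4.14), the phospholipase genes Pla2g4a (-3.29) and Plcb2 (-3.05), the kinase gene Matk (-3.23), the p45 factor gene Nfe2 (-3.19), the G protein gene Gna15 (-3.15), Mctp1 (-3.09), Ikzf1 (-3.06) and the phosphatase gene Ptpn7 (-3.05). In HE the few reads of these genes often came from single cells, though not always the same one. One HE cell held 94% of the Tuba4a reads but 0 reads of Mpo and Plek. The top HE cell of Mpo held 75.7% of the Mpo reads, and that of Plek 50% of the 8 Plek reads. Without the top cell of each group the ratio was -5.73 for Tuba4a, -5.75 for Mpo, -4.60 for Spi1 and -3.92 for Pla2g4a, and Prtn3 had 0 reads in HE. Haematopoietic transcription factor genes as a list stood at -1.04 (of 17 genes measured, 0 higher and 7 lower), with Irf8, an interferon regulatory factor of myeloid cells, at -2.40 and Myb at 5.05 against 39 CPM (-2.72, and -3.31 without the top cells) in 7 HE cells and 36 IAHC cells. Gata1, the erythroid and megakaryocytic factor, had 0 reads in HE and 1113 in IAHC, in 5 cells, and the homeobox gene Nkx2-3 had the highest ratio of the measured members (0.72). Reads of Spi1 and Myb coincided: all 34 IAHC and 5 HE cells with Spi1 also had Myb.

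Genes of leukocyte signalling had a median of -1.47 (of 25 genes measured, 0 higher and 10 lower), among them the kinase gene Btk (-3.53, in 2 HE cells and 17 IAHC cells), the small GTPase gene Rac2 (14.3 against 98.1 CPM, -2.69), the actin regulator gene Coro1a (63.3 against 326.1 CPM, -2.35) and the phosphatase gene Ptpn6 (-2.16). Lcp1, an actin-bundling protein of leukocytes, was at 209.99 against 172.7 CPM (0.28). Haematopoietic surface receptors stood at -1.21 (of 16 genes measured, 0 higher and 6 lower), with the integrin genes Itgb2 (-2.37) and Itga4 (-1.80) among the lower members and Cd93 at the upper end (0.82). The cytokine receptor gene Csf2rb had 0 reads in HE and 1092 in IAHC, in 14 cells. Gata1 and Csf2rb have no bounded ratio and lie at the low end of their lists, so the medians stand with them at any bound. Ptprc, which encodes CD45, was at 10.8 CPM in HE and 20.4 CPM in IAHC (-0.86) in 2 HE cells and 18 IAHC cells. One HE cell of cluster 2, that with the highest CD45 intensity, held 99.6% of the Ptprc reads of HE, 96.2% of those of Rac2, 100% of those of Itgb2 and 94% of those of Tuba4a. Without this cell the ratio was -4.36 for Ptprc, -6.00 for Rac2, -2.86 for Ptpn6 and -2.99 for Coro1a, and Itgb2 had 0 reads in HE. The median was then -1.79 for leukocyte signalling and -1.70 for surface receptors. HSC-associated genes were divided (of 18 genes measured, 2 higher and 6 lower, median -0.42): Adgrg1, the GPR56 gene, was at 108.1 against 372.9 CPM (-1.78) and Hlf at 4.64 against 21.2 CPM (-1.97, and -2.84 without the top cells), whereas Mecom, which encodes EVI1, was at 145.4 against 63.2 CPM (1.19), Prdm16 at 1.13 and Procr, the gene of the protein C receptor, at 122.5 against 76.6 CPM (0.67).

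The factors that blood and endothelium share were close to level (of 16 genes measured, 0 higher and 1 lower, median -0.27). Runx1 was at 48.6 CPM in HE and 97.3 CPM in IAHC (-0.99), just short of the 2-fold size, with reads in 18 HE cells and 39 IAHC cells. It passed that size without the HE cell of the highest CD45 intensity (-1.19). Gfi1 was at 13.1 CPM in HE and 35.6 CPM in IAHC (-1.38) in 12 HE cells and 28 IAHC cells, which made it the 1 call of the list, although all cells had been sorted for its reporter. Its relative Gfi1b was at 2.62 against 26.1 CPM (-2.91, and -3.56 without the top cells). Runx1 and Gfi1 reads occurred together in 10 HE and 26 IAHC cells, and 57 HE and 40 IAHC cells had neither. In clusters 0, 1, 3 and 5 together, 42 HE cells held 1 with a Runx1 read and 43 IAHC cells held 3, so these defining transcripts were nearly absent there in both groups. Lmo2 (0.01), Fli1 (0.08) and Gata2 (-0.06) were level. Kit, the receptor gene of the sort marker, was at 90.3 CPM in HE and 211.9 CPM in IAHC (-1.22) in 63 HE cells and 77 IAHC cells, and Itga2b, which encodes CD41, at 14.8 CPM in HE and 46.4 CPM in IAHC (-1.58) in 18 HE cells and 41 IAHC cells.

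**Figure D2:**
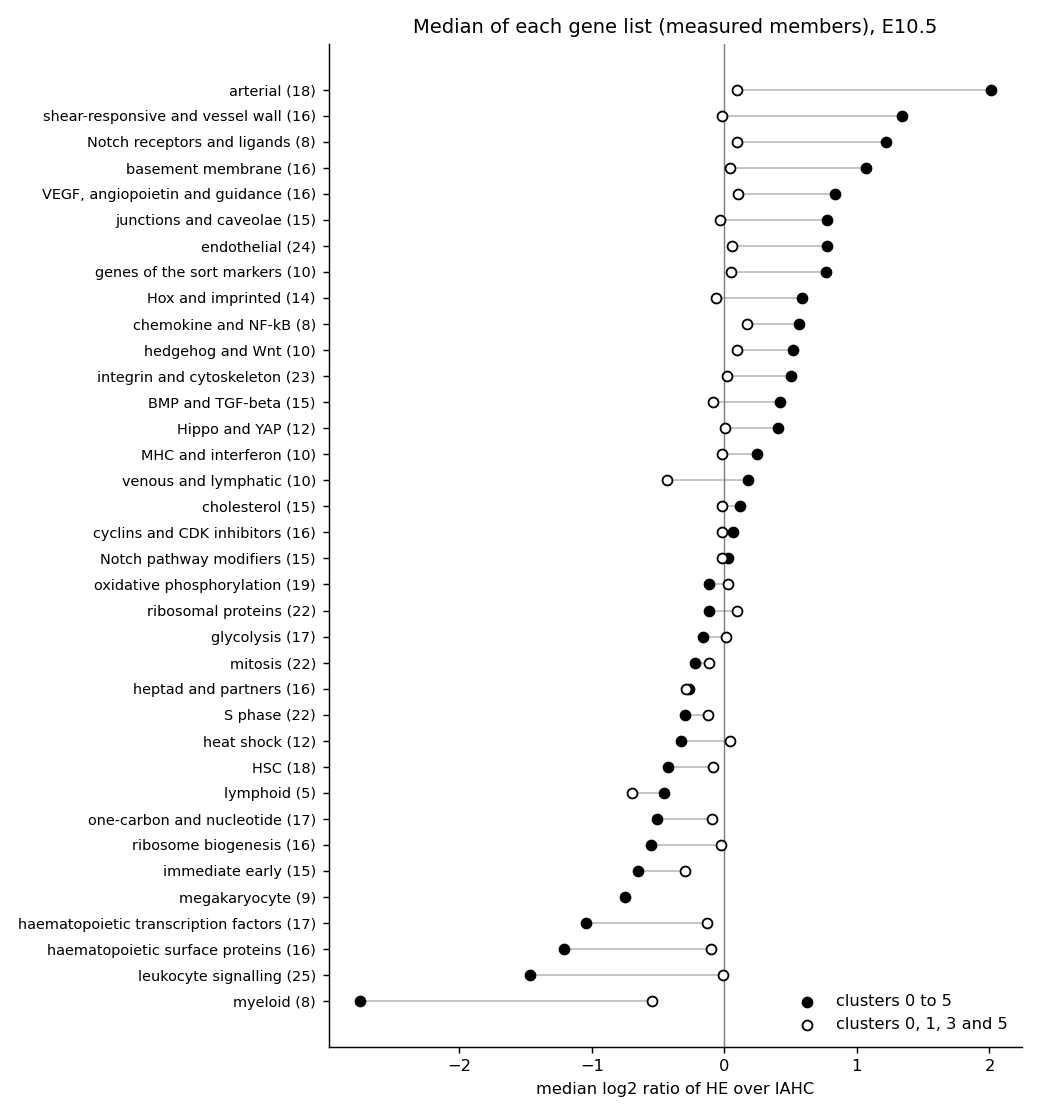
Median log2 ratio of HE over IAHC of each gene list with at least 5 measured members (number in brackets), except the erythroid list, which rests on 1 cell. A list with too few measured members in clusters 0, 1, 3 and 5 has no open point. Filled points are clusters 0 to 5 and open points clusters 0, 1, 3 and 5. In clusters 0 to 5 the lists of arterial, vessel-wall, Notch receptor and ligand, and basement membrane genes lie at 1 or above. Those of myeloid and leukocyte signalling genes lie at -1 or below. The open points of most lists lie near 0 (arterial 0.09, leukocyte signalling -0.01).

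Genes of growth were lower in HE by small amounts. Ribosome biogenesis genes had a median of -0.55 (of 16 genes measured, 0 higher and 1 lower), and all 16 were below 0, from the RNA polymerase I gene Polr1b (-1.13) and the dyskerin gene Dkc1 (173.9 against 304.3 CPM, -0.80) to Bop1 (-0.14). Serine, folate and nucleotide synthesis genes stood at -0.51 (of 17 genes measured, 0 higher and 1 lower), with Phgdh, the first enzyme of serine synthesis, at 125.05 against 353.5 CPM (-1.49), and all 17 below 0. S phase genes (-0.30), mitosis genes (-0.22), chaperones (-0.33), ribosomal proteins (-0.12), oxidative phosphorylation (-0.12) and glycolysis (-0.16) had no member called in either direction, and nor had cholesterol synthesis (0.12). The proliferation marker Mki67 was at 160.1 against 263.3 CPM (-0.71) and the kinase gene Cdk6 at 44 against 98.3 CPM (-1.14), the 1 call among cyclins and CDK inhibitors (median 0.06). By the authors' Cyclone calls, 31 of 77 HE cells (40.3%, 29.2 to 52.1%) and 23 of 81 IAHC cells (28.4%, 18.9 to 39.5%) were in G1, and the intervals overlapped.

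Immediate early genes, which dissociation can also raise, were lower in HE (of 15 genes measured, 0 higher and 5 lower, median -0.65), among them Egr1 (24.9 against 79.9 CPM, -1.65), Nr4a1 (-1.13) and Socs3 (-1.04), with Fos at 210.4 against 354.9 CPM (-0.75). Their part in the other differences was not tested. The MHC class I and interferon list stood at 0.25 (of 10 genes measured, 0 higher and 1 lower), with H2-D1 at 0.87 and the immunoproteasome gene Psmb10 at -1.42. Chemokine and NF-kappaB genes stood at 0.56 (of 8 genes measured, 1 higher and 0 lower), where Cxcr4 was the call and the chemokine gene Cxcl1 stood at 1.69 in 8 HE cells and 6 IAHC cells.

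The share of cells with reads gives a view that a few strong cells cannot set. It was taken over clusters 0 to 5 together, so it still depends on how the cells of each group were spread over the clusters. After thinning each cell to 50000 counts, Notch4 was detected in 85.7% of HE (75.9 to 92.6%) and 48.1% of IAHC (36.9 to 59.5%), Npr3 in 49.4% of HE (37.8 to 61%) and 13.6% of IAHC (6.98 to 23%) and Pcsk5 in 48.1% of HE (36.5 to 59.7%) and 13.6% of IAHC (6.98 to 23%). The other genes with the largest excess in HE were Vangl1, a planar polarity gene (34.8 percentage points), Pald1 (34.1), the matrix protein gene Hmcn1 (33.9), Eogt, which encodes a glycosyltransferase that modifies Notch (33.6), and Amotl1 (32.8). Amotl1 was level in summed CPM (0.05) while its share was 88.3% in HE and 55.6% in IAHC. Cluster 2 held 44.4% of the IAHC cells but 1.18% of their Amotl1 reads. In clusters 0, 1, 3 and 5 Amotl1 was lower in HE, at 207.7 against 301.9 CPM (-0.54). For the other genes named here with an excess in HE, cluster 2 held from 1.55% (Pald1) to 21.3% (Pcsk5) of the IAHC reads. On the other side Dnph1, a nucleotide hydrolase gene, was detected in 27.3% of HE (17.7 to 38.6%) and 69.1% of IAHC (57.9 to 78.9%), followed by Taf1 (-36.6 points), the primase gene Prim2 (-36.2), Ssbp2 (-36), Spi1 (-35.5), Snhg15 (-34.5), Syce2 (-34.4) and Myb (-34.2). As deposited, without thinning, Notch4 was found in 93.5% of HE and 59.3% of IAHC and Dnph1 in 41.6% of HE and 79% of IAHC. The excess of Npr3 was 23.8 points without thinning.

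The called genes had most of their reads in clusters 4 and 2. Among the genes called higher, a median of 61.8% of their HE reads lay in cluster 4 (over all measured genes 32.5%), and 71.2% of these genes had 50% or more there. Among those called lower, a median of 81% of their IAHC reads lay in cluster 2 (over all measured genes 45.6%), and 38.1% of these genes had 90% or more there. In clusters 0, 1, 3 and 5, which held 42 HE and 43 IAHC cells, 0.928% of 8940 measured genes were called higher and 1.68% lower. Of the genes called in clusters 0 to 5, 29 and 25 were called there in the same direction, which is 11% and 12.9% of the first lists and 34.9% and 16.7% of the second. The median ratio there was 0.35 for the genes called higher in clusters 0 to 5 and -0.41 for those called lower. The arterial list stood at 0.09, Notch receptors and ligands at 0.09, basement membrane genes at 0.04, ribosome biogenesis at -0.02 and haematopoietic transcription factors at -0.13.

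Single genes showed the same layout. Gja4 was at 2225.5 CPM in the HE cells of cluster 4 and 902.2 CPM in those of cluster 2, and at 384.7 CPM in cluster 1, against 1754.4, 67.1 and 193.7 CPM in the IAHC cells of the same clusters, with 0 reads in clusters 0 and 5 of both groups. Within cluster 2, the summed level of Gja4 was thus higher in HE. Spi1 had reads in 5 of 9 HE and 34 of 36 IAHC cells of cluster 2 (71.1 and 308.6 CPM) and 0 elsewhere. Runx1 had reads in all 9 HE and all 36 IAHC cells of cluster 2 (281.9 and 221.4 CPM) and in 8 of 26 HE cells of cluster 4. Notch1 was at 207.4 and 64.4 CPM in cluster 2, and Kit at 297.8 and 391.6 CPM. Summed over the arterial list, the HE and IAHC cells of cluster 2 were at 2783.8 and 432.1 CPM, and over the leukocyte signalling list at 2938.2 and 4045.5 CPM. The leukocyte value of HE rested on the cell with the highest CD45 intensity (13293.6 CPM, with 30.6 CPM of the arterial list). Without it the 8 other HE cells were at 1796.2 CPM of leukocyte signalling genes and 3087.5 CPM of arterial genes. With 9 HE cells, cluster 2 was below the 10 cells per group set for a comparison.

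Cluster 3 was the 1 cluster with 10 or more cells of both groups (19 HE and 12 IAHC). There Notch1 stood at -0.29, Kit at -0.27, Pecam1 at -0.01, Cdh5 at -0.20 and Dll4 at -0.04. Gja4 (-4.38) was lower in HE there, from reads in 2 of 19 HE and 2 of 12 IAHC cells, and Gja5 had reads in 0 HE and 2 IAHC cells. In clusters 0, 1, 3 and 5, among genes that were called there and held without the top cell of each group, and apart from predicted genes, the ends were Gpam, a glycerolipid synthesis gene, at 11 against 1.68 CPM (2.16), and Tmem26 at 1.54 against 13.1 CPM (-2.48). Both were near the 10 CPM filter. These 2 genes were chosen after their values were seen.

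**Figure D3:**
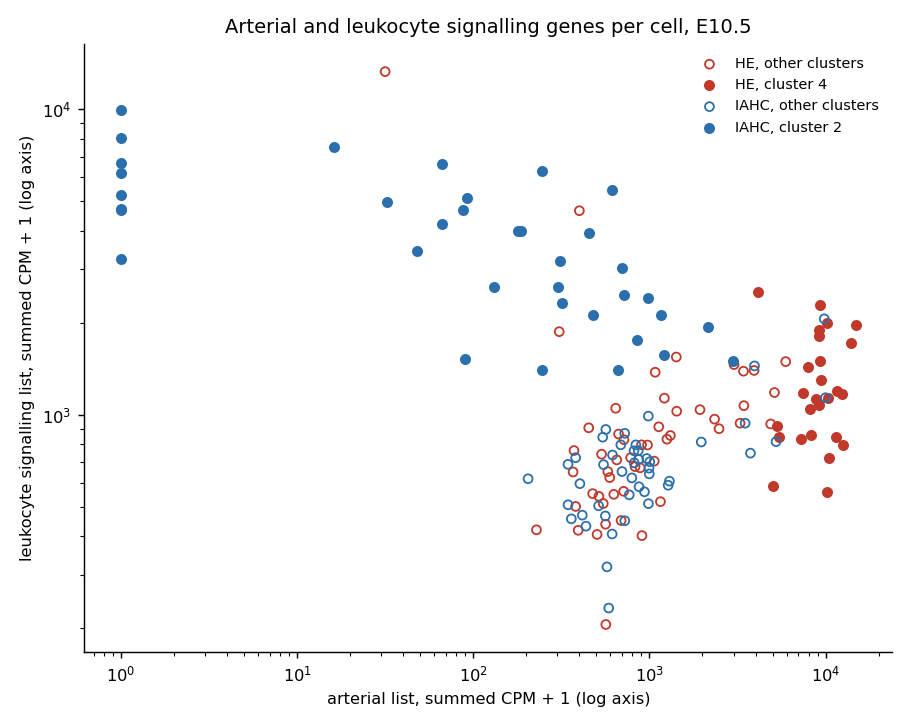
Summed CPM plus 1 of the arterial list (horizontal) and of the leukocyte signalling list (vertical) in each E10.5 cell of clusters 0 to 5, both on log axes. Filled HE points (cluster 4) lie at the right. Filled IAHC points (cluster 2) run to the upper left, up to 9982.9 CPM of leukocyte signalling genes. Most open points of both groups share 1 cloud. Among the open points outside it are the 2 IAHC cells of cluster 4, at the right. The highest HE cell, an open point of cluster 2, is at 13293.6 CPM of leukocyte signalling genes.

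Over single cells the arterial and leukocyte signalling sums went in opposite directions within IAHC (Spearman's rho -0.48, 81 cells) and together within HE (0.51, 77 cells). The general endothelial sum had a rho of 0.24 with the leukocyte sum in HE and -0.76 in IAHC. These are descriptions over cells of 1 plate, whose sums share each cell's total. The leukocyte sum was not confined to cluster 2, and its medians per cell were 899.7 CPM in HE and 938 CPM in IAHC. In HE outside cluster 2 it was at 1297.7 CPM in cluster 4 and 1056.1 CPM in cluster 1. In clusters 0, 3 and 5 it was at 664.8, 645.2 and 668.2 CPM. The positive rho in HE does not by itself mean that arterial cells carried a leukocyte programme.

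The index-sort intensities, on the sorter's own scale, showed the gate and what went with it. cKIT, on which the groups were cut, had a median of 106.9 in HE (quartiles 35 and 222.8) and 542.3 in IAHC (quartiles 435.4 and 924.9). The lowest IAHC cell was at 301.3, and 12 of 77 HE cells lay above it, the highest at 860.5 in cluster 2. Of these cells, 6 were in cluster 3 and 3 in cluster 2. The HE cells of cluster 4 had a median of 32, and the IAHC cells of cluster 2 one of 978.2. CD41 had a median of 368.8 in HE (quartiles 211.1 and 551.4) and 763.02 in IAHC (quartiles 500.2 and 1312.9), and CD45 one of 402.2 in HE (quartiles 293.98 and 555.6) and 639.3 in IAHC (quartiles 411.3 and 924.6), so the quartile ranges of both signals overlapped between groups. One HE cell of cluster 2 had a CD45 intensity of 19826.3 with 984.4 CPM of Ptprc, 329.5 CPM of Kit and 0 reads of Cdh5, while 9 IAHC cells lay above 2000. The GFI1 reporter was at 523.7 in HE (quartiles 404.6 and 674.7) and 620.1 in IAHC (quartiles 396.8 and 1463.3).

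Among the Notch proteins, DLL4 had a median of 67 in HE (quartiles 22.9 and 108.01) and 40.1 in IAHC (quartiles -8.16 and 85.5), a difference of 26.9. NOTCH1 was at 726.3 in HE (quartiles 537.4 and 925.1) and 683.8 in IAHC (quartiles 468.7 and 1044.2) and JAG1 at 7566.1 in HE (quartiles 5786.5 and 10014) and 8315.3 in IAHC (quartiles 5952.3 and 10602.8), differences of 42.5 and -749.2 that were smaller than the spread of the cells. NOTCH2 lay around 0 in both groups (medians -51.4 in HE and -42.6 in IAHC), and CD31 was level (30358.3 and 30199.7). In clusters 0, 1, 3 and 5 the differences were -11.8 for DLL4, -209.6 for NOTCH1 and -280.3 for cKIT. Jag1 and Notch1 transcripts were thus higher in HE in sum, while the quartiles of both protein signals overlapped. Over the cells, the rho between protein and transcript was -0.03 in HE and 0.51 in IAHC for NOTCH1, -0.10 and 0.12 for JAG1, 0.46 and 0.42 for DLL4 and 0.20 and 0.69 for GFI1. The JAG1 intensity rose with that of CD31 in both groups. The HE cells lowest and highest in CD31 (2694.3 and 90298.1) had JAG1 intensities of 3056.9 and 15808.5. In IAHC such cells (CD31 of 1337.8 and 83539.6) had 2831.5 and 17955.7. How far the JAG1 signal is separate from that of CD31 was not tested.

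**Figure D4:**
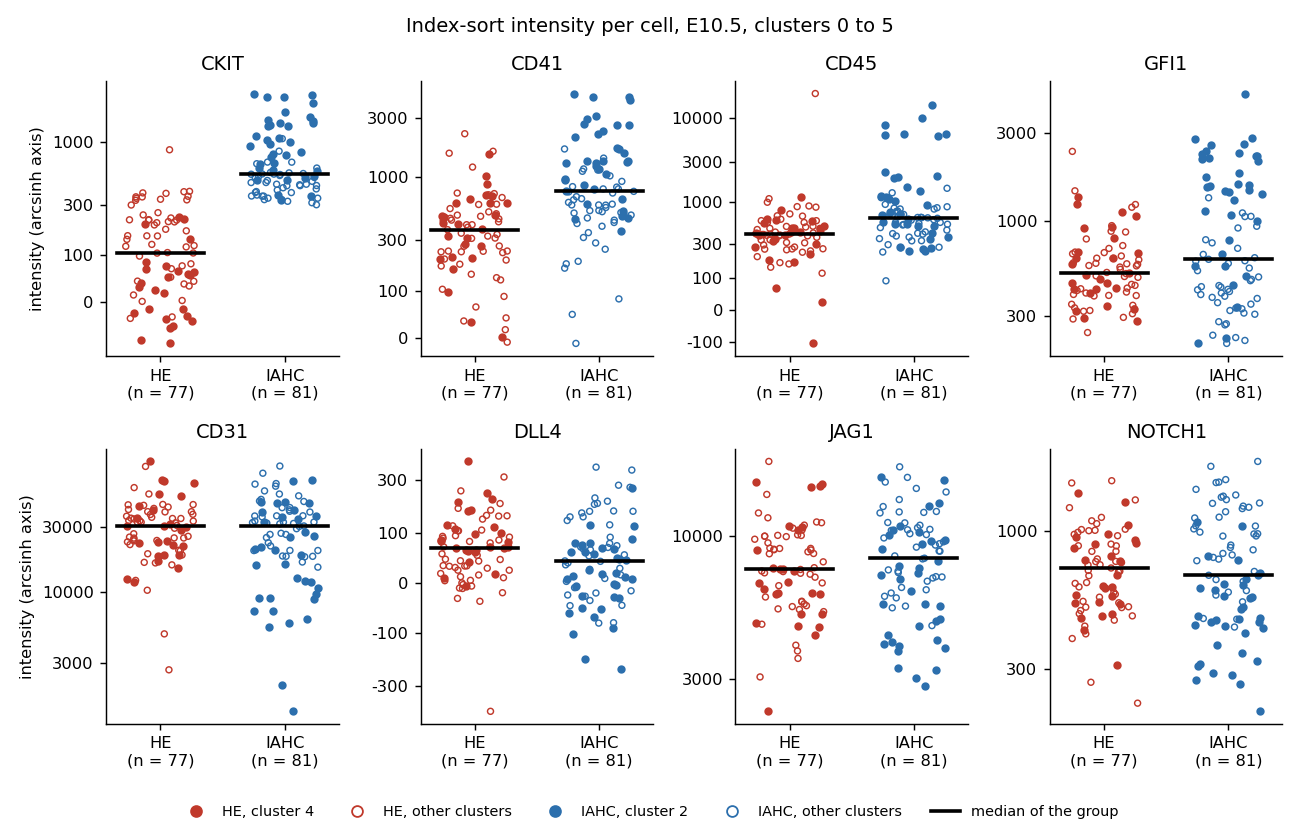
Index-sort intensity per cell (arcsinh axis, labelled in the sorter's units) of 8 signals in E10.5 HE (77 cells) and IAHC (81 cells), with group medians as bars and points as in the plot of reads per cell. cKIT separates the groups except for 12 HE cells above the lowest IAHC cell, CD41 and CD45 are lower in HE by the median, and CD31, JAG1 and NOTCH1 overlap throughout.

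Defining markers of other cell types were mostly at or near 0 in clusters 0 to 5. Of the macrophage list, C1qa, C1qb, C1qc and Adgre1 had 0 reads, and the measured members Fcer1g (-2.02) and Tyrobp (-1.47) are shared with other myeloid cells. The HE cell with the highest CD45 intensity held 86.9% and 93.9% of their HE reads, and without it the ratios were -4.20 and -4.37. The germ cell genes Pou5f1, Dppa3 and Dppa5a and the neural crest gene Sox10 also had 0 reads, but Stmn2, which neurons also express, was called higher in HE (111.01 against 22.7 CPM, 2.24), as was Isl1, a LIM homeobox gene (1.37). At 0 reads in HE and in IAHC were 6 and 6 of 13 macrophage genes, 5 and 7 of 12 germ cell genes, 5 and 5 of 13 neural genes, 7 and 7 of 10 mast cell and basophil genes and 6 and 3 of 18 mesenchyme genes. The list sums per cell had medians of 28.6 CPM in HE and 49.9 CPM in IAHC for mesenchyme (highest 2662.5 and 2129.4), 0 and 0 for mesonephric epithelium (highest 569.9 and 513.8), 200.5 and 259.5 for megakaryocytes and 78 and 81 for lymphoid genes. The mast cell gene Cpa3 was at 0 against 19 CPM, in 6 IAHC cells. The part of these markers in the other differences was not tested. The erythroid list had a median of 4.29 with 0 genes called higher. One HE cell of cluster 1 held 93.2% of its HE reads (27804.6 CPM in that cell, with the embryonic globin genes Hbb-y and Hba-x as the largest). Alox12 of the megakaryocyte list, a lipoxygenase gene, was at 21.9 against 2.75 CPM (2.61) in too few cells to be called.

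With all kept cells, 3.26% of 9577 measured genes were called higher and 1.42% lower. The 9 HE cells of cluster 9 held 95.7% of the megakaryocyte-list reads of HE, and genes that megakaryocytes share with progenitors changed sign: Itga2b stood at 3.95, Plek at 3.59 and Tuba4a at 1.85. Spi1 (-3.64), Mpo (-4.61), Gja4 (2.73) and Hey2 (3.07) had the same sign with and without them.

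At E11.5, in the same batch, 2.99% of 9830 measured genes were called higher in HE and 4.16% lower, and no cells are shared with E10.5. Of the genes called higher at E10.5, 77 were called higher at E11.5 (29.2% of the E10.5 list, 26.2% of the E11.5 list), and of those called lower, 46 (23.7% and 11.2%). There Gja5 was at 275.1 against 0 CPM, Htra1 at 136.3 against 0.86 CPM, Hey2 at 18.7 against 0 CPM, Gja4 at 596.4 against 32 CPM (4.18), Spi1 at 2.47 against 38.9 CPM (-3.52) and Lyz2 at 0.0952 against 11.9 CPM. By log2 ratio Jag1 was at 2.36, Notch4 at 1.76, Notch1 at 0.44 and Hes1 at -0.83. Runx1 was at 0.39, against -0.99 at E10.5. Notch2, level at E10.5 (0.05), was at 5.39 against 29.9 CPM (-2.27). Of 8 Notch receptor and ligand genes measured at E11.5, 4 were called higher and 1 lower. The arterial list had a median of 2.22. The differences between the stages were not tested.

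In the other E10.5 cells HE came from GL58 and IAHC from GL69, so batch and group cannot be told apart there. By log2 ratio Gja4 was at 3.74, Gja5 at 4.83, Hey2 at 2.09, Dll4 at 2.61, Mpo at -4.70 and Prtn3 at -4.55, with the signs of GL78. Spi1 was at -0.53 and Kit at -0.07. Jag1 (-1.03), Ikzf1 (1.30), Matk (1.01), Runx1 (0.40), Procr (-0.66) and Ptprc (0.51) were among the genes with the opposite sign. The arterial list had a median of 2.06 and leukocyte signalling genes one of -0.01.

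**Figure D5:**
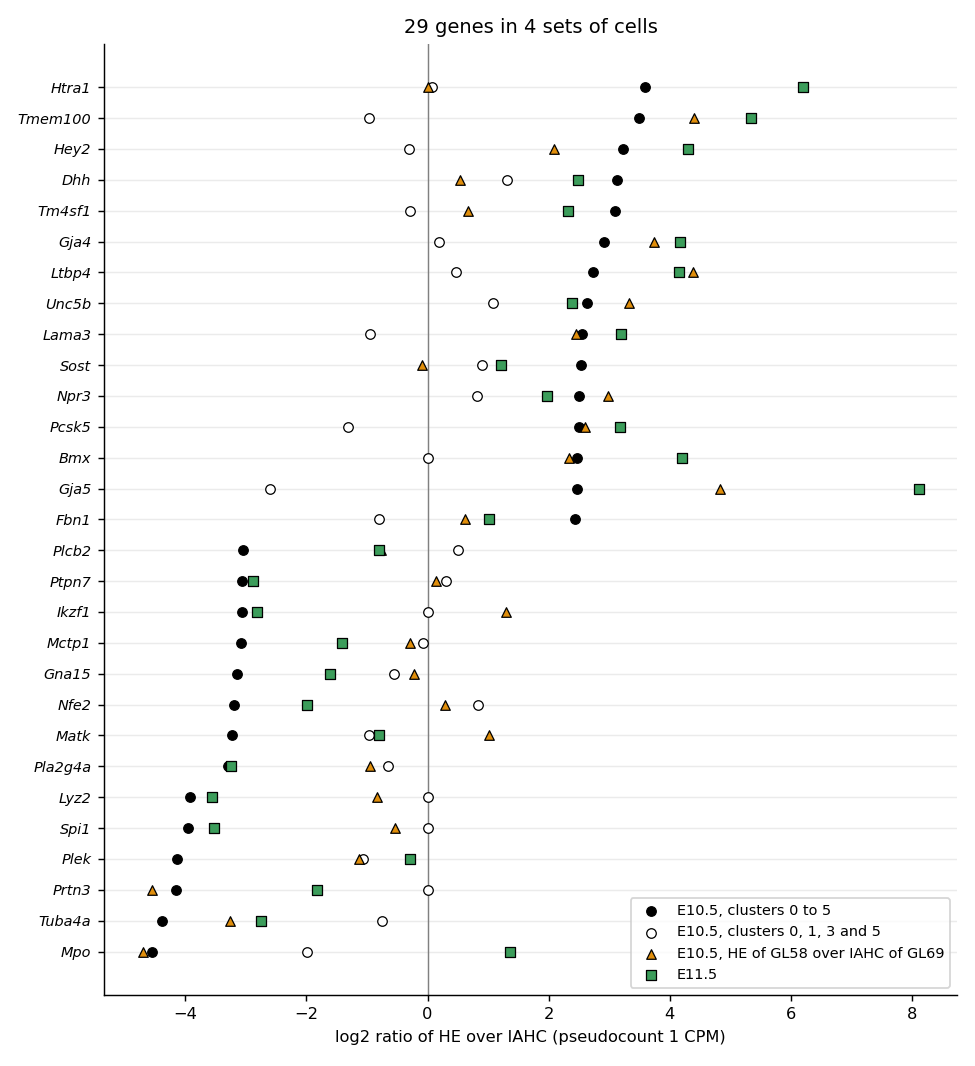
Log2 ratio of HE over IAHC (pseudocount 1 CPM) of the named genes with the largest ratios, 15 higher and 14 lower in HE, in 4 sets of cells. Black points are E10.5 cells of clusters 0 to 5 in GL78, open points those of clusters 0, 1, 3 and 5, triangles HE of GL58 over IAHC of GL69, and squares E11.5. The 15 upper genes lie at or near 0 or above in E11.5 and the other E10.5 cells, while open points scatter around 0 and Mpo is above 0 at E11.5 (1.36).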

How the data were processed

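Per the submitters' notes and the methods, the authors mapped reads to mm10 with STAR 2.7.3, counted them per gene with HTSeq 0.9.1 and processed cells with Scanpy 1.4.4. Neither the annotation release nor the strand setting is given in the sources used here. The deposited table holds raw counts, with 46170 rows for 46078 gene IDs and 92 spike-ins, which had 0 reads. A reference list of gene names gave a symbol for 45143 IDs, and 0.0649% of the counts lay on IDs without one. The 496 columns of other cells in the deposited table were not used. The deposited cell annotation gave batch, population, Louvain cluster, Cyclone phase, the fraction of mitochondrial counts that the authors computed, and index-sort intensities. The intensities were used as deposited, on the sorter's scale, where some lie below 0. Cells missing from the authors' clustering had failed their limits on genes, counts and mitochondrial share. The authors' normalized table, their rank test over cells and their pseudotime were not used, and no doublet caller was run.

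Counts were summed per group and compared with Python 3.11.15, NumPy 2.4.6, pandas 2.3.3 and SciPy 1.17.1, with exact 95% Poisson intervals for sums and Clopper-Pearson intervals for shares. The code was tested on simulated counts. No test was run, because each sample is 1 cell and no animal is named. The members and the 44 gene lists (712 symbols, of which 4 older spellings were not found) were chosen with earlier results of these data known. The text names the 15 genes per direction with the largest ratio whose call held without the top cell of each group and as a mean over cells, leaving out predicted genes, and 1 of these genes is not reported here. It also names the Notch genes and sort markers, members from both ends of each list, and the 8 genes per direction with the largest difference in detection. Alternatives were another filter, pseudocount, minimum share, scaling (TMM factors of edgeR 4.0.16 among them), cell weight, depth and set of cells. Promoter sequences are RefSeq's for GRCm38.p6, found for 5 of the genes looked up.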

Additional observations from a re-analysis of the deposited data

Results flagged for a closer look

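Mpo had opposite signs at the 2 stages. Its log2 ratio of HE over IAHC was 1.36 at E11.5 and -4.56 at E10.5, and this difference was not tested. At E11.5, 1 of 39 HE cells held 100% of the HE reads (81.6 CPM in sum), while 10 of 76 IAHC cells had reads (31.2 CPM).

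The cells outside clusters 0 to 5 held signals that the comparison left out. The 9 HE cells of cluster 9 had a median of 89471.3 CPM summed over the megakaryocyte list, from 29995.7 to 121708, against a median of 200.5 CPM in the HE cells of clusters 0 to 5. They also had medians of 3774.6 CPM for the mesenchyme list and 980.7 CPM for the macrophage list. With all kept cells, 4 of 18 mesenchyme genes were measured and 1 was called higher. Of 13 macrophage genes, 3 were measured and 0 called in either direction. Both lists hold genes that other cell types express, so these sums alone do not name a cell type. The primordial germ cell list stood at a median of 7254.9 CPM in the 4 HE cells and 6084.5 CPM in the 5 IAHC cells of cluster 8, against 151.01 CPM in HE and 96.4 CPM in IAHC of clusters 0 to 5.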

How the results depend on the processing

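The number of genes called changed most with the cells and the limits used. Relative to the clusters 0 to 5 of GL78, the count of genes called higher in HE was 0.458 times as large with a filter of 50 CPM, 0.568 with a minimum share of 50%, 3.74 in G1 cells alone, 2.28 in the other E10.5 cells and 0.314 in clusters 0, 1, 3 and 5, a setting chosen after seeing the data. The count of genes called lower was 0.284, 0.361, 3.98 and 1.79 times as large in the first of these settings, 0.603 with a pseudocount of 5 CPM and 0.613 with all E10.5 batches. The other alternatives stayed within 1.5 times of both counts, and no scaling moved the share of higher calls by more than 10 points. Of the called genes chosen by ratio, as Notch genes or as sort markers, and of lists with a median of at least 1 either way, in clusters 0, 1, 3 and 5 the sign turned for Tmem100 (-0.97), Hey2 (-0.31), Tm4sf1 (-0.28), Lama3 (-0.94), Pcsk5 (-1.31), Gja5 (-2.61), Fbn1 (-0.81), Jag1 (-0.42), Jag2 (-0.49), Nfe2 (0.84), Ptpn7 (0.30), Plcb2 (0.51) and the vessel-wall list (-0.0213). With all kept cells it turned for Tuba4a (1.85), Plek (3.59), Nfe2 (0.45), Itga2b (3.95), surface receptors (0.00637) and leukocyte signalling (0.0864). In the other E10.5 cells it turned for Sost (-0.0916), Matk (1.01), Nfe2 (0.29), Ikzf1 (1.30), Ptpn7 (0.14), Jag1 (-1.03), Gfi1 (0.0677) and haematopoietic transcription factors (0.0879). Of such genes that were not called, Procr turned in clusters 0, 1, 3 and 5 (-0.78) and Procr (-0.66), Runx1 (0.40) and Ptprc (0.51) in the other E10.5 cells, beside genes close to level. Without the HE cell of the highest CD45 intensity, also chosen after seeing the data, the counts were 1.03 and 1.14 times as large. The causes were not tested.

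No paired analysis was possible because each group is 1 sample and the numbers in the titles only name cells. With 1 plate and no animal per cell, a difference between groups cannot be told apart from one between embryos. Sums weight cells by depth, genes with few reads rest on few cells, and reads without molecular identifiers make the counting intervals too narrow.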

Other observations

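The 9 HE cells of cluster 2 differed among themselves. Over the arterial list they ran from 30.6 over a median of 1418.98 to 5933.4 CPM, and over leukocyte signalling from 932.6 over 1492.8 to 13293.6 CPM, and the cell with the highest leukocyte sum had the lowest arterial sum. Reads of Gja4 and Spi1 lay together in 2 HE cells and 13 IAHC cells. The 2 IAHC cells of cluster 4 were at 9911.8 CPM over the arterial list, against 9375.2 CPM in its 26 HE cells. The NOTCH1 protein signal followed its transcript over the IAHC cells (rho 0.51) and hardly over the HE cells (-0.03), as a description over cells of 1 plate.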
